A study of Rattus norvegicus with 4 samples.

Results

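The genes described are 10 purinergic receptors, the cell-surface proteins that sense extracellular nucleotides, in NR8383 cells. They were chosen by name, as every non-control probe whose gene name on the array is P2rx1, P2rx4, P2rx5, P2rx7, P2ry1, P2ry2, P2ry6, P2ry12, P2ry13 or P2ry14. All 10 were found, on 13 probes, among 21090 genes with a name; 7 have 1 probe and 3 have 2. NR8383 is an established macrophage line from rat lung lavage, used here after 20 passages, grown in medium with 15% heat-inactivated serum and 2 mM glutamine as a mixture of adherent and floating cells. The 4 samples are 1 group, the submerged control, and the design text calls them biological replicates. The labels state the time under medium in conflicting ways, 4 h in one place and 48 h after seeding in another, so no duration is attached to the values. No treated group was analysed here, so the data answer which of these receptors the cells transcribe at a level the array detects, and how far replicate samples of 1 line differ. In such bulk RNA, fewer cells that express a gene and less of its RNA per cell cannot be told apart.

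Purinergic receptors fall into P2X and P2Y families. P2X receptors are ion channels opened by ATP, which let calcium and sodium in. P2Y receptors are coupled to G proteins and answer to ADP, ATP, UTP, UDP or UDP-glucose. In macrophages they are known for sensing nucleotides set free by stressed or dying cells. P2X7 is known as the trigger of potassium efflux that starts the NLRP3 inflammasome, P2Y2 as a receptor for ATP and UTP in phagocyte recruitment, and P2Y6 as a UDP receptor tied to phagocytosis.

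The arrays measured each gene through probes of 60 bases. The probe of P2rx4, which was detected, is shown beside that of P2rx5, which was not, to compare their letters. Probes of 3 P2Y genes are shown as examples, with a further probe that lies beside that of P2ry2. The P2ry13 probe shown is the dimmer of its pair, not the one detected on 3 arrays. Capitals mark the longest run of letters that the P2rx4 and P2rx5 probes share, 8 bases. Sequences are those in the array files, 5′ to 3′, and positions are on rn4.
P2rx4: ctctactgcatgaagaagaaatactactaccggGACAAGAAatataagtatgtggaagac
P2rx5: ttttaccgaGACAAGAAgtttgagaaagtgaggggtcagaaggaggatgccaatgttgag
P2ry2: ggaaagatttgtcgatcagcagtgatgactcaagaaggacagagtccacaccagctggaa
LOC103694826: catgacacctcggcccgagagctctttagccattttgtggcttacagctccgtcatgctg
P2ry13: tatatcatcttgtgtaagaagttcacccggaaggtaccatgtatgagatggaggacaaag
P2ry14: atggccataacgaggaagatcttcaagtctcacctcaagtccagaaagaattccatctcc
The P2rx4 probe lies at chr12:34945104-34945163 on the minus strand. The P2rx5 probe lies on the plus strand between chr10:60045367-60046079, and its 60 bases are spread over 713 bases of genome. The P2ry2 probe lies at chr1:158440467-158440526, the P2ry13 probe shown at chr2:148600672-148600731 and the P2ry14 probe at chr2:148502701-148502760, all on the minus strand. Among the 78 pairs of probes of the 10 genes no shared run was longer than 8 bases, and 2 pairs reached it. No exon or UTR annotation of rn4 was used here.

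Detection followed the scanner software's mark for spots well above background, and a gene counted as detected where 1 probe or more carried that mark on all 4 arrays. By that rule 6 of the 10 receptors were detected: P2rx4, P2ry1, P2ry2, P2ry6, P2ry12 and P2ry14. Among all 21090 named genes 50.9% were detected, so 6 of 10 is near the share of genes in general and says nothing particular about the family. The detected receptors were 1 of 4 P2X channels and 5 of 6 P2Y receptors. P2ry13 was detected on 3 arrays, and P2rx1, P2rx5 and P2rx7 on none. Every probe of the 10 genes is printed on 1 spot per array, and none of their 52 spots was saturated or marked as an outlier.

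Signals below are processed signals in fluorescence units, in the order of replicates 1 to 4. Levels are log2 signals relative to the 75th percentile of the same array, which was 1317, 1489, 1179 and 958 units. The lowest signal that the software called well above background was 16.7, 18.4, 19.1 and 20.3 units. Where a spot failed the software's looser flag (positive and significant), its deposited signal is a surrogate, a stand-in the software puts in place of a dim value. This held for 8 of the 52 receptor spots: all 4 of P2rx1, 3 of P2rx7 and 1 of P2rx5. Surrogate values have no order and are no measured level. Probes differ in how strongly they bind, so no receptor's level is set against another's.

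**Figure D1:**
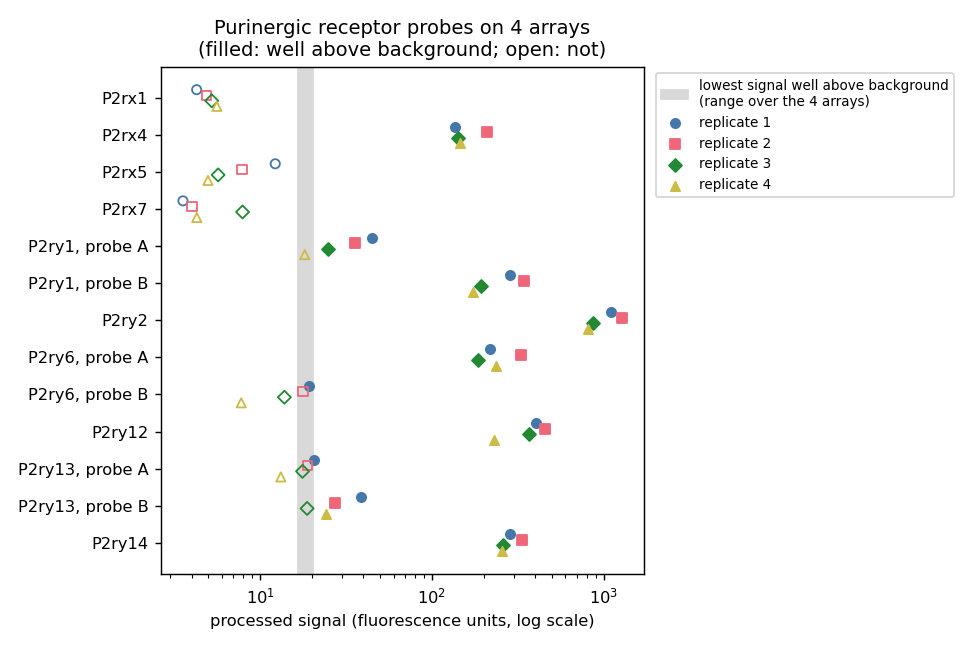
Processed signal (fluorescence units, log axis) of the 13 probes of 10 purinergic receptor genes on 4 arrays; filled symbols are well above background, open symbols are not, and the grey band spans the lowest well-above-background signals of the 4 arrays, 16.7 to 20.3 units. P2rx1, P2rx5 and P2rx7 have open symbols throughout, and P2ry2 lies between 808 and 1280.0 units.

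Of the P2X channels, P2rx4 was the one detected. It encodes an ATP-gated channel known to reside in lysosomes and at the surface of macrophages. Its probe read 137, 209, 142 and 146 units. Replicate 2 was high in these signals and the other arrays lay close together. Relative to the 75th percentile the level was -2.97 ± 0.24 (SD, n = 4), lowest on replicate 1 at -3.27 and highest on replicate 4 at -2.71, a 1.47-fold range.

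P2rx7 encodes the channel with the long cytoplasmic tail through which high ATP activates the inflammasome. Its 1 probe, at chr12:35074875-35074934, read 3.56, 4.02, 7.91 and 4.28 units. All 4 signals were below the lowest well-above-background signal of their arrays, and the probe passed the looser flag on replicate 3 alone, so its other 3 values are surrogates. P2rx1, known for fast desensitising currents in platelets and smooth muscle, read 4.28, 4.90, 5.24 and 5.60 units at chr10:59904473-59904532 and passed neither flag on any array. P2rx5 read 12.3, 7.86, 5.70 and 4.98 units, and passed the looser flag on 3 arrays and the stricter one on none. These 3 genes rest on 1 probe each, so a failed probe cannot be told apart from a transcript below the detection limit. The data do not show that the transcripts were absent.

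Of the P2Y receptors known to couple to Gq and calcium release, all 3 were detected. P2ry2, the ATP and UTP receptor, read 1099, 1280.0, 869 and 808 units. Its level was -0.29 ± 0.10 (SD, n = 4). Replicate 3 lay at -0.44 and the others between -0.26 and -0.22, a 1.17-fold range. A probe under another gene name, LOC103694826, lies 430 bases away, and its pattern over the replicates differed (given below).

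P2ry6, the UDP receptor, has a pair of probes that disagreed. Probe A, at chr1:158381909-158381968, read 219, 329, 185 and 236 units, well above background on all arrays. Probe B, at chr1:158381145-158381204, read 19.4, 17.8, 13.9 and 7.77 units, and was well above background on replicate 1 alone. The deviations of the probes from their own means also differed: on replicate 4 probe A lay 0.34 log2 units above its mean and probe B at -0.49. On probe A, which carries the call, the level was -2.37 ± 0.32 (SD, n = 4), with replicates 1 and 3 low and 2 and 4 high, a 1.57-fold range.

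P2ry1, an ADP receptor known from platelets and glia, also has 2 probes. Probe B, at chr2:150465769-150465828, read 284, 345, 194 and 174 units, and was detected on all arrays at a level of -2.35 ± 0.23 (SD, n = 4). Probe A, at chr2:150465223-150465280, read 44.8, 35.7, 24.9 and 18.2 units, and was detected on replicates 1 to 3. On both probes replicates 1 and 2 lay above replicates 3 and 4, with deviations of 0.13, 0.24, -0.26 and -0.11 on probe B and 0.51, 0.00, -0.18 and -0.33 on probe A.

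Of the 3 P2Y receptors known to couple to Gi, 2 were detected. P2ry12, the ADP receptor that platelet inhibitors target and that microglia use for sensing injury, read 406, 454, 370.0 and 231 units at chr2:148611053-148611112 on the minus strand. Its levels were -1.70, -1.71, -1.67 and -2.06. Replicate 4 was low and the other arrays lay within 0.04 log2 units of each other. P2ry14, the receptor for UDP-glucose, read 285, 334, 259.5 and 257 units. Its levels were -2.21, -2.16, -2.18 and -1.90, with replicate 4 high relative to the 75th percentile.

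P2ry13, another ADP receptor of myeloid cells, lay at the limit of detection. Probe B, at chr2:148599189-148599248, read 38.8, 27.3, 18.8 and 24.1 units, and only replicate 3 fell short, just under that array's lowest well-above-background signal of 19.1. Probe A, the one shown above, read 20.6, 18.8, 17.7 and 13.2 units and was well above background on replicate 1 alone. Both probes passed the looser flag on all arrays, and under it 7 of the 10 receptors were detected, against 62.1% of all named genes. The same 7 were detected when 2 arrays sufficed (55.6% of all genes) and when replicate 3 was left out. When every probe of a gene had to pass, P2ry1 and P2ry6 dropped out and 4 remained, P2rx4, P2ry2, P2ry12 and P2ry14, against 43.6% of all genes.

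**Figure D2:**
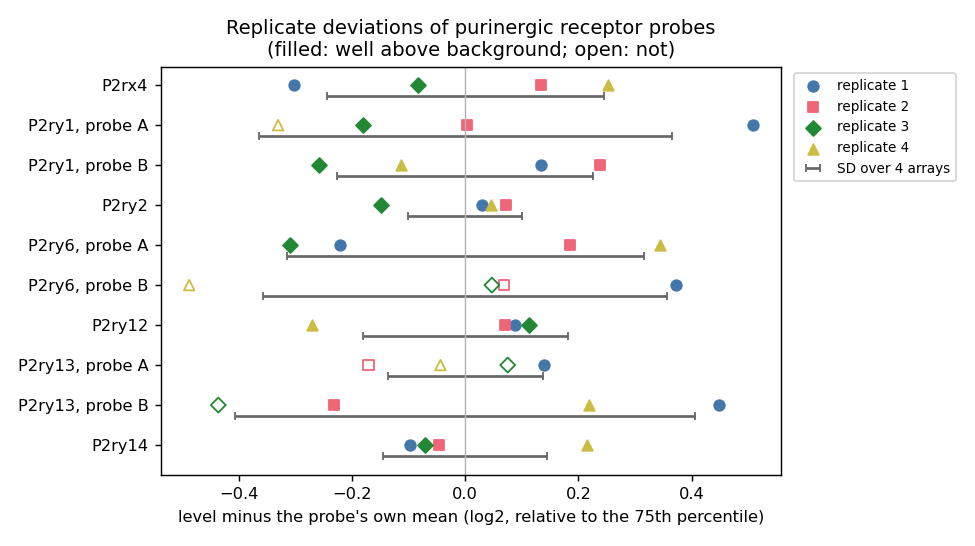
Level of each receptor probe on each array minus the probe's own mean over 4 arrays (log2, relative to the 75th percentile), for probes well above background on at least 1 array; open symbols are not well above background and grey bars are ± 1 SD. The probes of P2ry6 part on replicate 4 (0.34 and -0.49), and replicate 4 stands apart for P2ry12 and P2ry14.

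The spread between replicates was tested for each probe detected on all 4 arrays by setting its residual variance against limma's robust prior, which follows signal, with Benjamini-Hochberg adjustment over 19400 probes. None of the 6 detected receptors passed at 0.05 in limma. Before adjustment 1 of 6 was below 0.05, P2ry6, whose adjusted p in limma was 0.76. Among 10734 detected genes 0.149% passed, and 6% had an unadjusted p below 0.05. For the other 5 receptors limma's adjusted p was 0.996. The SD of P2ry6 was 2.18 times the prior SD at its signal, that of P2ry1 1.57 times, P2rx4 1.49, P2ry12 1.39, P2ry14 1.05 and P2ry2 0.94. With 4 arrays this test finds only large excesses of variance, so the result does not show that the receptors were equally expressed in the 4 samples.

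**Figure D3:**
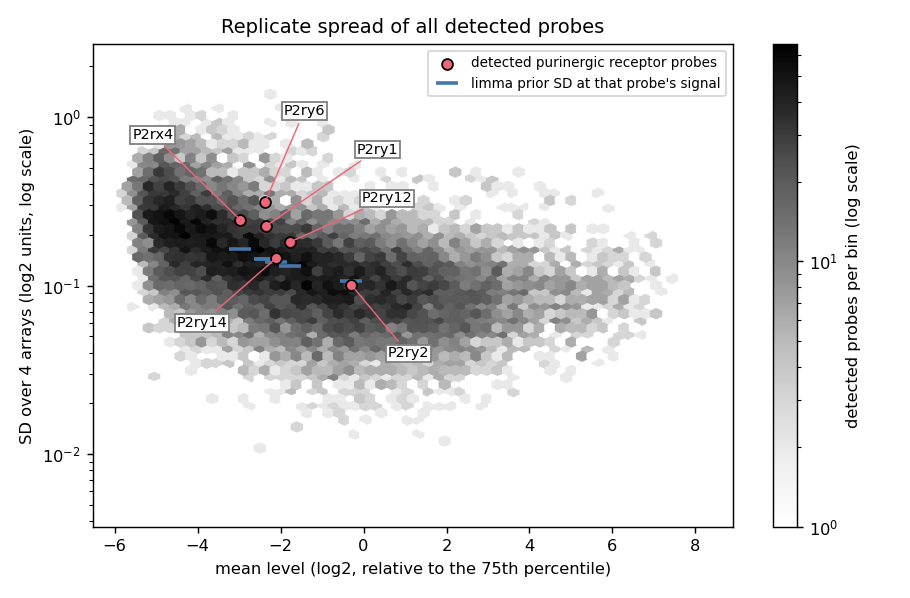
SD over 4 arrays (log2 units, log axis) against mean level for all 19400 detected probes (grey, number per bin), with the 6 detected receptors in red and limma's prior SD at the signal of each as a blue bar. P2ry6 lies highest above its bar and P2ry2 just below its own.

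The median SD of the 6 detected receptors was 0.20 log2 units, against 0.11 for all detected genes, and 19.0% of detected genes had an SD above 0.20. This comparison is not matched for signal. At the receptors' own signals limma's prior SD ran from 0.107 (P2ry2) to 0.165 (P2rx4). Single arrays set the SD of 3 receptors. P2ry12 had an SD of 0.18 with all arrays and 0.02 without replicate 4, P2ry14 0.15 and 0.03 without replicate 4, and P2ry2 0.10 and 0.02 without replicate 3. In unscaled signal all 6 were highest on replicate 2, the array with the highest 75th percentile. Relative to the 75th percentile 3 were highest on replicate 4, 2 on replicate 2 and 1 on replicate 3. Among all detected genes 32.6% were highest on replicate 4, 25.0% on replicate 2 and 22.7% on replicate 3. Relative to 5 bright spike-in probes, which shift replicate 4 against replicate 1 by 0.96 log2 units, 5 were highest on replicate 2 and 5 lowest on replicate 4, and the median SD was 0.48. P2ry14, highest on replicate 4 by the 75th percentile, was lowest there by the spike-ins, whereas P2ry12 was lowest on replicate 4 by both. In unscaled signal and with the spike-ins whole arrays shift against each other. The shares over all genes are not given for these orders, so the counts are not read as a trait of the receptors.

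Several receptor genes are neighbours. In the RefSeq gene order of GRCr8, used for order alone, P2ry6 and P2ry2 on chromosome 1 have no protein-coding gene between them, and both were detected. P2rx4 and P2rx7 on chromosome 12 also lie side by side, and P2rx4 was detected and P2rx7 was not. On chromosome 2, P2ry13 and P2ry12 have no protein-coding gene between them, and P2ry12 was detected on all 4 arrays and P2ry13 on 3. Between P2ry12 and P2ry1 lie 11 protein-coding genes, of which Aadac, Mbnl1 and the succinate receptor gene Sucnr1 were detected. Aadacl2l, Aadacl2fm3l1 and LOC120100833 among them had no probe and could not be detected. P2rx1 and P2rx5 on chromosome 10 enclose 4 protein-coding genes, Camkk1, Ncbp3, Itgae and Haspin. All 4 were detected, at -4.25 ± 0.25, 0.02 ± 0.07, -1.69 ± 0.07 and -0.28 ± 0.10 (SD, n = 4), although neither receptor was. Of all named genes 50.9% were detected.

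RefSeq promoter windows of GRCr8, from 250 bases before to 50 after the gene start, matched 7 of the 10 receptors. The detected genes P2ry2, P2rx4, P2ry1 and P2ry14 held 33, 21, 16 and 6 CpG dinucleotides in their windows, and P2rx7, P2ry13 and P2rx1, not detected, held 13, 7 and 6. The median was 20 over windows of all detected genes and 6 over those of other genes with a probe. The letters GAGGAA, the core recognised by the macrophage factor PU.1, occurred on either strand in 3 of the 7 windows (P2rx1, P2rx4 and P2rx7), against 27.5% of all 27457 windows. A match is a description of letters and no evidence of binding.

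Of 5 further P2 receptors, P2ry10 and P2rx3 were detected. P2ry10, a lysophospholipid-sensing receptor of lymphoid and myeloid cells, lay at -3.23 ± 0.10 (SD, n = 4). P2rx3, the channel of sensory neurons, was detected on 1 of its 3 probes, with levels of -5.28, -5.38, -5.21 and -4.91 on replicates 1 to 4, and the remaining 2 were well above background on no array. P2rx2, P2rx6 and P2ry4 were detected on none. Of 4 adenosine receptors, which sense the product of ATP breakdown, Adora2b lay at -3.87 ± 0.28 and Adora3 at -4.71 ± 0.53 (SD, n = 4). Adora3 read 37.4, 93.5, 48.8 and 28.1 units, high on replicate 2, and did not pass the variance test (limma, adjusted p = 0.78). Adora1 was detected on 3 arrays and Adora2a on none.

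Among 8 genes of nucleotide release 2 were detected, Slc17a9, which loads ATP into vesicles, at -3.00 ± 0.04 and Lrrc8a, the core of volume-regulated anion channels, at 1.31 ± 0.06 (SD, n = 4). The pannexins Panx1, Panx2 and Panx3 and the connexin Gja1 were detected on no array, each by 1 probe. Of 17 genes that break down nucleotides or act on nucleosides 13 were detected. Entpd1, which encodes CD39 and turns ATP and ADP to AMP, lay at -2.48 ± 0.17, Nt5e, which encodes CD73 and turns AMP to adenosine, at -0.77 ± 0.04, and Entpd4 at -2.72 ± 0.17. Entpd3, Enpp2 and Alpl were detected on no array. Entpd2 was detected on replicate 4 alone, where it read 71.0 units, and was not well above background on the others. Ada, adenosine deaminase, had a 2.63-fold range (limma, adjusted p = 0.16). Nucleoside transporters were detected in 6 of 7 cases, with Slc29a1 at 0.11 ± 0.12, Slc29a2 at -3.06 ± 0.26, Slc29a3 at -1.72 ± 0.08 and Slc29a4 at -4.35 ± 0.13, and Slc28a3 on no array. Against 50.9% of all named genes, the shares were 25% for release, 76.5% for breakdown and nucleoside metabolism, and 85.7% for transport.

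Downstream of P2Y receptors, 18 of 23 G protein and calcium release genes were detected (78.3%). Gna11 lay at -5.30 ± 0.34 and the Gq-class subunit Gna15 of blood cells at -0.80 ± 0.07, with Gi subunits Gnai2 at 5.48 ± 0.05 and Gnai3 at 1.56 ± 0.01 (SD, n = 4). Gnaq was detected on 3 arrays, Gna13 on 2, and Gna14, Gnai1 and the inositol trisphosphate receptor Itpr3 on none, each by 1 probe. The genes of the inflammasome list were detected in 10 of 10 cases, against 50.9% of all named genes, although P2rx7 itself was not. Nlrp3 lay at -2.56 ± 0.25, its partner Nek7 at 1.56 ± 0.14, the adaptor Pycard at -0.19 ± 0.18 and Casp1 at 0.28 ± 0.06. None of the genes in these pathway lists passed the variance test in limma, and the smallest adjusted p among them was that of Ada.

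**Figure D4:**
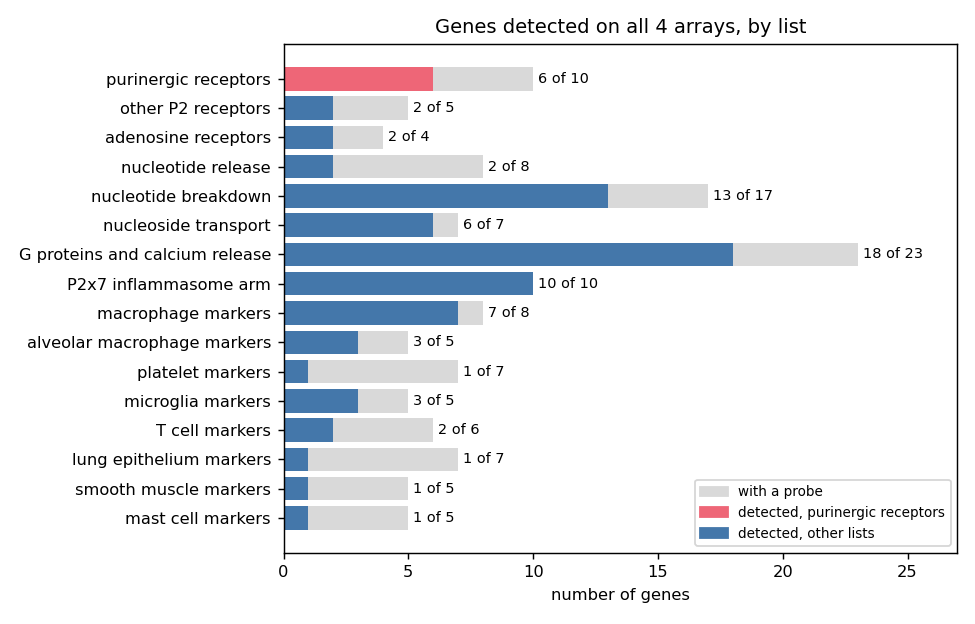
Number of genes with a probe (grey) and detected on all 4 arrays (coloured) in each list; bars start at 0. The receptors have 6 of 10 detected, the inflammasome list 10 of 10 and the nucleotide release list 2 of 8.

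The cells' label was checked against markers. Of 8 macrophage markers 7 were detected, Cd68, Csf1r, Spi1 and Lyz2 among them, and Adgre1 passed on 1 array. Itgam, the integrin chain CD11b, varied most by limma's test among all genes of the pathway and marker lists, with an adjusted p of 0.065. It read 491, 1012, 391 and 937 units, low on replicates 1 and 3 and high on 2 and 4. Of 5 alveolar macrophage markers with a probe Pparg, Fabp4 and Siglec5 were detected, and Marco and Car4 on no array. Platelets, known for P2rx1, P2ry1 and P2ry12, had 1 of 7 markers detected, Gp9 at -3.94 ± 0.11 (SD, n = 4), with Pf4 on 3 arrays and Gp1ba, Gp1bb, Gp5, Gp6 and Ppbp on none. Microglia markers, several of which other macrophages share, gave 3 of 5, Gpr34 and Cx3cr1 among them, with Tmem119 on 2 arrays and Sall1 on none. T cell markers gave 2 of 6 (Cd3d and Lck), lung epithelium 1 of 7 (Ager), smooth muscle 1 of 5 (Acta2) and mast cells 1 of 5 (Hdc). Of all named genes 50.9% were detected. The share was 87.5% for macrophage markers and 60% for both alveolar macrophage and microglia markers. The last 2 shares are near that of all genes and do not tell these identities apart. Whether cells of another kind added to any receptor's signal was not tested.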

How the data were processed

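Per the labels' protocols, 100 ng of RNA was labelled with Cy3 and hybridised in 1 colour to Agilent arrays of rat genes. The submitters' processing notes name Agilent Feature Extraction (11.0.1.1). The deposited values are spot intensity on a linear scale: the processed signal, spatially and multiplicatively detrended by the software, with surrogates for dim spots and no normalization between arrays, and mean and local background signals, per the file headers. Other deposited columns are flags of 0 or 1.

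Of 58717 non-control spots per array, 402 to 615 that the software marked as outliers (non-uniform or population) were dropped. Levels are log2 of the processed signal after subtracting, per array, the 75th percentile, with spots of a probe averaged. Detection of a probe required over 0.5 of its spots to be well above background. A gene's level is that of its brightest detected probe. Probes were named by RefSeq accession (23845), symbol (5129) or older symbol (352), and 16272 kept the array's own name and stayed out of the named genes. On each array 11086 to 11915 of 21090 named genes were detected. Precision is limited by the number of arrays.

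Variance between arrays was tested in R 4.3.3 with limma (3.58.1), checked on simulated data; Python 3.11.15 was used otherwise. As far as the deposited names show, all 4 arrays carry 1 slide and scan, so neither could be tested as a batch. P-values measure how far a probe's spread between these samples exceeds limma's prior for its signal. A spread shared by all probes is not tested. The alternatives were another flag, looser and stricter detection rules, normexp (offset 50), other scalings and priors, a threshold of 0.01 and single arrays left out. Named genes were all members, the other P2 and adenosine receptors, the first 4 of each list, and, for lists with at most 5 detected or at most 5 undetected members, those members; others are examples chosen after their values were seen. The members and lists were chosen with earlier results of these data known. Correlations with other genes were not computed over 4 arrays. Some genes that the rule would name are not reported here.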

Additional observations from a re-analysis of the deposited data

Results flagged for a closer look

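An array was taken to stand apart when the distance to its closest neighbour, as a share of the whole range, passed Dixon's critical value for 4 values, which chance gives in about 1 of 20 groups. Of 78 detected receptor and list genes 6 did so, against 3.9 expected by chance. Both receptors among them stood apart on replicate 4: P2ry12 was low there (gap 0.890 of the range) and P2ry14 high (0.837), and with spike-in scaling P2ry14 was instead lowest there. Lrrc8a was high on replicate 4 (0.881) and Il1b low (0.930), Gna12 was low on replicate 3 (0.870) and Csf1r low on replicate 2 (0.902).

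Probes named for genes outside the 10 also gave signal. The probe of LOC103694826, described in the files as a P2Y purinoceptor 2-like, read 283, 336, 320.4 and 269 units (mean 302), well above background on all 4 arrays. It lies at chr1:158440957-158441016 on rn4, 430 bases from the P2ry2 probe and on the same strand. From their own means on replicates 1 to 4, the P2ry2 probe lay at 0.03, 0.07, -0.15 and 0.05 and the LOC103694826 probe at -0.20, -0.13, 0.14 and 0.19. The signs differed on replicates 1 to 3 and were the same on replicate 4, and the difference between the probes was not tested. Whether the LOC103694826 probe reads the P2ry2 transcript was not tested either.

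The probe of LOC102552569, described as P2Y purinoceptor 11-like, read a mean of 5572 units and was well above background on all arrays. Its letters ggggttggggatttagctcag, 21 bases, occur in 6 other probes of the array, and all 7 were detected on all 4 arrays, against 42.5% of the 45598 probes. What the probe of LOC102552569 binds was not tested.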

How the results depend on the processing

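No paired analysis was possible because all 4 arrays belong to 1 group. The number of detected receptors was 6 or 7 with a replicate left out, 7 with the looser flag or with 2 arrays, 6 with spots marked as outliers kept or probes matched by accession, and 4 with every probe required. A gene detected on all 4 arrays still passes with a replicate left out or with 2 arrays. Those counts, of receptors and of lists, could therefore only stay or rise. No receptor spot was marked as an outlier, and the accessions gave the same probes, so those 2 settings could not change the receptor count. No receptor passed limma's variance test under any alternative run, those with a replicate left out included (0 to 0). Over all probes the test passed 33 of 19400, and 1121 of 45588 with no filter on dim probes, where surrogates are included. The median SD of the detected receptors was 0.168 to 0.206 with a replicate left out and 0.48 with spike-in scaling, by whose construction arrays shift against each other. Of 48 alternative values of single receptors' levels, 44 moved by less than their SD, and 4, all with normexp, by more. With normexp only P2ry12 and P2ry14 stayed within their SD. Scaling to the 75th percentile of detected probes was re-centred, and no receptor spot was marked as an outlier. The mean levels under these 2 settings thus equalled the main ones by construction and are no sign of stability. Of 105 alternative list counts 97 stayed within 1.5 times the main count. The others were small counts, such as lung epithelium and smooth muscle markers, 4 each with the looser flag. Dim probes set the limits here: P2rx1, P2rx5 and P2rx7 were well above background on no array, and P2ry13 and the second probes of P2ry1 and P2ry6 lie near the detection limit.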

Other observations

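P2ry10b, named through its accession and looked at after its values were seen, read 776, 873, 766 and 553 units on replicates 1 to 4 and was well above background on all arrays. Its level was -0.74 ± 0.08 (SD, n = 4), lowest on replicate 4 at -0.79 and highest on replicate 3 at -0.62.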
